A study of Mus musculus with 5 samples.

Results

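PU.1, the C/EBP factors, c-Maf, Gfi1 and the EGR factors are transcription factors that set the choice between macrophage, granulocyte and dendritic cell fates. PU.1 is an ETS-family factor that opens chromatin at myeloid genes, and C/EBP factors are basic leucine zipper proteins that act beside it. RUNX factors work in the same circuit: they bind a short DNA core as dimers with Cbfb, and in mouse blood cells RUNX1 acts through an enhancer upstream of the PU.1 gene. The 8 genes described here are Sfpi1 (the name that the annotation gives to the PU.1 gene), Cebpa, Cebpb, Cebpd, Maf, Gfi1, Egr1 and Egr2, out of 22227 genes, and they held 24 of the 13014 Runx3 peaks of the series.

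The series maps where Runx3 sits on chromatin by ChIP-seq, in which DNA fragments bound by a protein are pulled down with an antibody and sequenced, in the D1 dendritic cell line, of mouse spleen origin. For the Runx3 IP group, 3 libraries were prepared using rabbit polyclonal antibody raised to mouse Runx3, and for the NIS IP group 2 were prepared from the same line using rabbit non-immune serum, and the labels name no treatment for either. D1 is a single line, so it stands in for dendritic cells in culture and not for those of a tissue, and no RNA was measured, so its identity and the activity of these genes could not be checked here. The authors pooled reads into 1 Runx3 and 1 NIS alignment, of 8689867 and 4946605 tags after duplicates were removed, and called 1 peak list with no values per library. There is therefore no replicate error: intervals below cover counting error only, and no test between conditions was possible.

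Members were found by position. Each gene received a domain reaching from 5 kb upstream to 1 kb downstream of its outermost transcription start site (TSS), extended on both sides up to 1 Mb or to the corresponding segment of the next gene, and a peak belonged to the gene when its summit lay in that domain. All 8 genes had at least 1 peak, against 42.9% of all genes. The genes were chosen with earlier results of these data known. Their domains were also longer, with a median of 199 kb against 90.0 kb for all genes, and the part of domain length in this count was not tested. Cebpb had 7 peaks, Sfpi1 and Cebpd 5 each, Cebpa and Maf 2 each, and Gfi1, Egr1 and Egr2 1 each. Thus 3 of the 8 had 5 or more, against 4.97% of all genes. The median of 2 peaks per gene equalled the median of all genes with a peak.

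The peaks were of ordinary strength for this list. Fold enrichment is the depth-scaled Runx3 pileup at the summit plus 1, divided by the NIS background plus 1, as computed by the authors' peak caller. That background was set by the caller, with regional windows of 1000 and 10000 bp, and need not equal the NIS fragments at the summit. At several member peaks, the strongest Cebpb peak among them, it was about 0.31 on the scaled pileup. That is the lowest value of the list, so folds at these peaks differ only through their Runx3 pileup. Folds ranged from 3.56 to 16.7 over the 24 peaks, with a median of 8.28. Over all peaks they ranged from 3.01 to 52.7, with a median of 8.12. The summits held 11 to 39 Runx3 fragments, with a median of 20 against 19 over all peaks. Sfpi1, Cebpb, Cebpd and Egr1 reached a fold of 10 or more, which is 4 of 8 genes, against 19.6% of all genes, those without a peak included. The best peaks of the others had folds of 7.03 (Cebpa), 7.25 (Maf), 3.56 (Gfi1) and 6.39 (Egr2). The median best fold of the 8 genes was 9.37, against 9.55 over all genes with a peak.

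**Figure D1:**
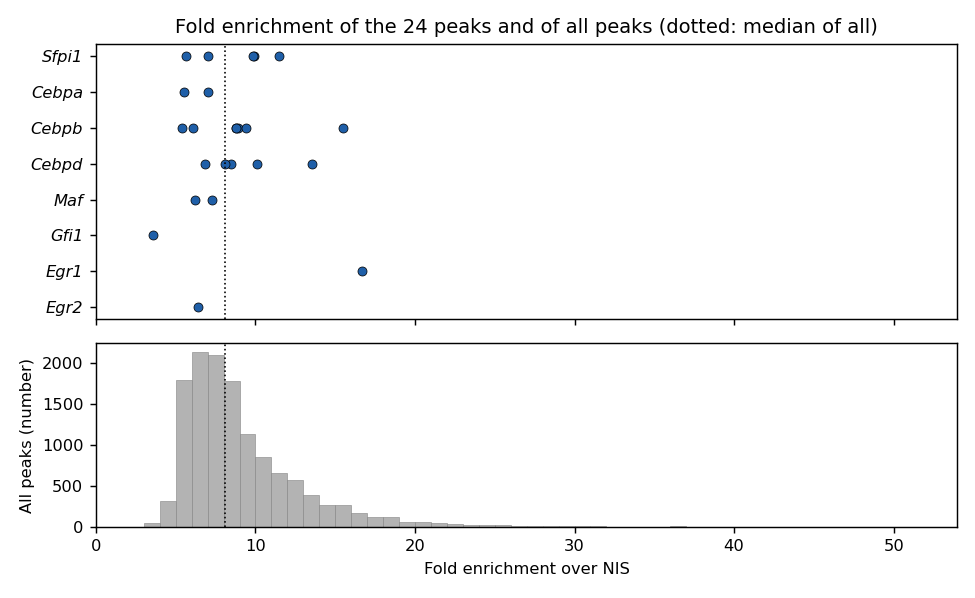
Fold enrichment over NIS of each peak in the domains of the 8 genes (top, 1 point per peak) and the number of all peaks by fold (bottom, bins of 1). The dotted line is the median of all peaks, 8.12. The member peaks run from 3.56 at Gfi1 to 16.7 at Egr1 and none reaches the far right of the list, which ends at 52.7.

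Sfpi1 lies on chromosome 2 from 90922547 to 90955913 on the forward strand, and its domain covers 37.7 kb between those of Slc39a13 and Mybpc3. Its 5 peaks stood within 4.68 kb of each other, all with summits in intronic sequence of the longest transcript. Their summits lay 0.64, 2.29, 2.59, 4.14 and 5.32 kb downstream of that transcript's TSS. The other protein-coding transcripts start further downstream, at 90936253 and 90936937. Measured from the first of these starts, the same summits lay upstream by 13.1, 11.4, 11.1, 9.57 and 8.39 kb, so the group is intronic for the longest transcript and upstream of the other protein-coding transcripts. A processed transcript from 90922565 to 90930467 also spans all 5 summits. Whether the group coincides with the known upstream enhancer was not tested.

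The strongest Sfpi1 peak was the most distal from the outermost TSS, chr2:90927773-90927944, with 28 fragments (95% exact Poisson interval 18.6 to 40.5) and a fold of 11.5. The peak next to that TSS, chr2:90923073-90923323, had 24 fragments (15.4 to 35.7) and a fold of 9.93. That at chr2:90926595-90926736 had 21 fragments and a fold of 9.85. The 2 peaks between them were lower, with 15 fragments and a fold of 7.03 (chr2:90924647-90924864) and 18 fragments and a fold of 5.62 (chr2:90925080-90925231). The second of these stood on an NIS background of 1.0 scaled fragments, against 0.314 to 0.476 at the other 4. The counting intervals of all 5 peaks overlapped.

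Such a dense group was rare in the list. Each of the 5 Sfpi1 summits had the other 4 within 5 kb, which was true of 70 of the 13014 peaks, or 0.538%. Sfpi1 also had 13.3 peaks per 100 kb of domain, against 0.493 per 100 kb of the 20 chromosomes with peaks. Domain length enters that density, and the Sfpi1 domain is among the shorter ones here.

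The RUNX core (TGTGGT or TGCGGT, either strand) was searched in the 100 bp to each side of a summit. At Sfpi1 it was present in the 3 higher peaks and absent from the 2 lower ones. The sequences are shown because they hold the letters under these summits. They are read from the forward strand of mm9 with RUNX cores in capitals, where ACCACA and ACCGCA are the same cores on the reverse strand. The peak nearest the outermost TSS held 3 cores, centred 22.5 and 13.5 bp to the left and 53.5 bp to the right of the summit, and a C/EBP motif (TTGCNNAA) centred 9.5 bp from it. Of all peaks, 2.90% held 3 or more cores.
Sfpi1 +0.64 kb, chr2:90923147-90923258: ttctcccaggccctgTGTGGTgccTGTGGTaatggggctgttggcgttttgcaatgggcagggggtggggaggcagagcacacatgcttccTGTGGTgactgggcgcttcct
Sfpi1 +4.14 kb, chr2:90926672-90926707: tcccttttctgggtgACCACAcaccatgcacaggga
Sfpi1 +5.32 kb, chr2:90927787-90927822: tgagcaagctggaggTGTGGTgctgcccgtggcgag

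**Figure D2:**
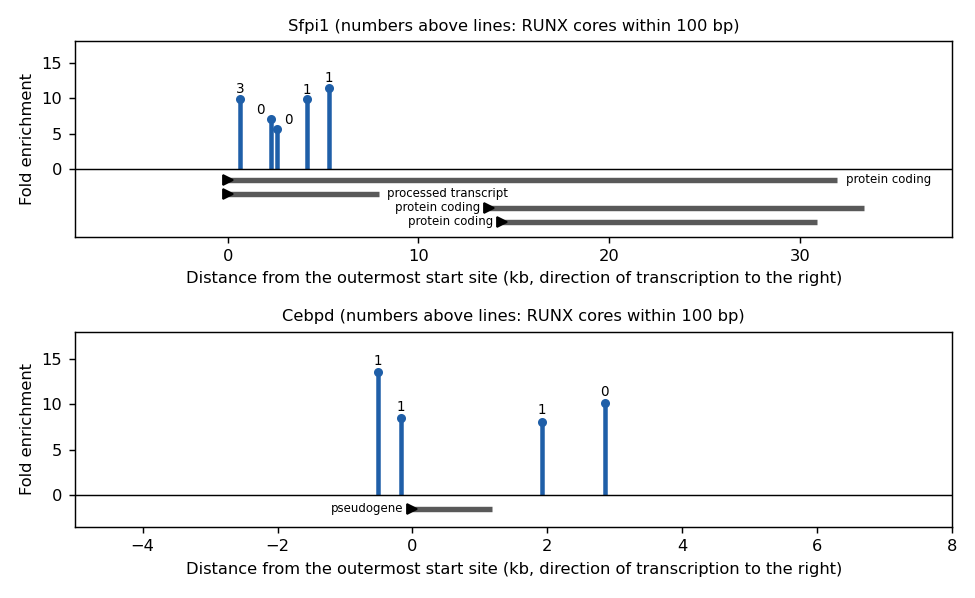
Fold enrichment of the Runx3 peaks around Sfpi1 (top) and Cebpd (bottom) against distance from the outermost TSS in kb, with annotated transcripts as grey bars and their starts as arrowheads. The number above each line counts RUNX cores within 100 bp of the summit. The 5 Sfpi1 peaks fall between the outermost TSS and the starts of the shorter protein-coding transcripts, and 4 of the 5 Cebpd peaks lie within 2.85 kb of its TSS, the fifth, at 99.1 kb, being outside the plot.

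The C/EBP genes differed widely among themselves. Cebpa, which encodes the factor that founds granulocyte and monocyte progenitors, had the fewest peaks of the 3 and the lowest best fold. It lies on chromosome 7 from 35904312 to 35906945, forward strand, in a domain of 120 kb between Cebpg and Slc7a10, and no summit lay within 10 kb of its TSS. An intergenic peak 18.5 kb downstream (chr7:35922694-35922812) had 11 fragments (5.49 to 19.7) and a fold of 5.52. The other, 32.5 kb downstream (chr7:35936762-35936897), had 15 fragments (8.40 to 24.7) and a fold of 7.03. Only the weaker one held a RUNX core, centred 29.5 bp from the summit.
Cebpa +18.5 kb, chr7:35922726-35922761: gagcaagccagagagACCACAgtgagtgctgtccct

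Cebpb, a single-exon gene whose product acts in macrophage activation and emergency granulopoiesis, had the most peaks of the 8 genes. It lies on chromosome 2 from 167514415 to 167515918, forward strand, and its domain of 261 kb runs from Tmem189 to Ptpn1. At least as many peaks were found at 2.18% of all genes. The peaks spread over 137 kb, with 1 upstream of the gene by 21.0 kb and 1 in the coding exon at 0.327 kb. The other 5 lay downstream, outside protein-coding transcripts, at 26.3, 35.0, 72.9, 88.5 and 116 kb. No other summit lay within 5 kb of any Cebpb summit.

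The strongest Cebpb peak was the farthest from its TSS, 116 kb downstream at chr2:167630332-167630714, with 34 fragments (23.5 to 47.5) and a fold of 15.5, a value that 6.49% of all peaks reached. It was also the widest of the 24 peaks, with 383 bp against a median of 168. Its window held 4 RUNX cores, as did 0.553% of all peaks with 4 or more. The peak 88.5 kb downstream (chr2:167602820-167603055) had 20 fragments and a fold of 9.42 and held both a RUNX core and a PU.1 motif (GAGGAAGT). Both stood together in 2 of the 24 peaks, the other at Cebpd +99.1 kb, and in 6.61% of all peaks. The peak in the coding exon (chr2:167514648-167514807) had 20 fragments and a fold of 8.89. It held a PU.1 motif on the reverse strand and no RUNX core. The sequences show the peak with most cores of the set and 2 in which a PU.1 motif stood, with RUNX cores and PU.1 motifs (GAGGAAGT, or ACTTCCTC on the reverse strand) in capitals.
Cebpb +116 kb, chr2:167630471-167630629: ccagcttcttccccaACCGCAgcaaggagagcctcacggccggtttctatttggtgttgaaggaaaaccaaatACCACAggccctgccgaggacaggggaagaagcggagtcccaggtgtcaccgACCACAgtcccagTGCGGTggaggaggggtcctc
Cebpb +88.5 kb, chr2:167602876-167602959: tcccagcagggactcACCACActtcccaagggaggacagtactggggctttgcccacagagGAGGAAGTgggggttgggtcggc
Cebpb +0.327 kb, chr2:167514760-167514797: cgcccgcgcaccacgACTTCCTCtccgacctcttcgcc

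The other 4 Cebpb peaks were lower. The peaks 21.0 kb upstream (chr2:167493389-167493616) and 26.3 kb downstream (chr2:167540615-167540802) both had 21 fragments and a fold of 8.78, the first with a RUNX core 6.5 bp from its summit and the second with a C/EBP and an AP-1 motif (TGANTCA) and no RUNX core. Those 35.0 and 72.9 kb downstream (chr2:167549294-167549461 and chr2:167587192-167587387) had 14 and 11 fragments and folds of 6.08 and 5.40, and a core stood in the first alone. The upstream summit lay nearer to Tmem189, at 6.46 kb, than to Cebpb, and the 5 downstream ones also fell in the domain of the phosphatase gene Ptpn1. When annotated genes of every biotype, non-coding ones included, were allowed to end a domain, 2 of the 7 peaks remained with Cebpb.

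Cebpd, an acute-phase member of the family that is induced by inflammatory signals, had its peaks close by. It lies on chromosome 16 from 15887379 to 15888559, forward strand, and the annotation types it as a pseudogene, whereas RefSeq types it as protein coding, so it was kept. Its domain covers 175 kb. A pair of promoter peaks stood 0.518 and 0.177 kb upstream of the TSS, and 2 more stood 1.92 and 2.85 kb downstream, past the end of the gene. Each of these 4 summits had the other 3 within 5 kb, as did 1.87% of all peaks with 3 or more. The fifth lay 99.1 kb downstream in an intron of 2310008H04Rik.

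The strongest Cebpd peak, chr16:15886764-15886965 in the promoter, had 33 fragments (22.7 to 46.3) and a fold of 13.5. The second promoter peak, chr16:15887120-15887286, had 20 fragments (12.2 to 30.9) and a fold of 8.46. The downstream pair had 26 fragments with a fold of 8.09 (chr16:15889233-15889369) and 23 with a fold of 10.1 (chr16:15890135-15890329). The order of these folds and counts differs because the NIS background was 0.952 scaled fragments at the first and 0.392 at the second. The far peak (chr16:15986430-15986572) had 14 fragments and a fold of 6.82. The sequences of the 3 peaks nearest the gene with a RUNX core are shown, since the core was centred within 14.5 bp of the summit in each. The fold of 10.1 came from a summit with a PU.1 motif and no core.
Cebpd -0.518 kb, chr16:15886849-15886884: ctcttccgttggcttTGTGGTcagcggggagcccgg
Cebpd -0.177 kb, chr16:15887199-15887234: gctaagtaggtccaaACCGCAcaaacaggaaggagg
Cebpd +1.92 kb, chr16:15889291-15889326: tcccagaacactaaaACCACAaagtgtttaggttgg

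**Figure D3:**
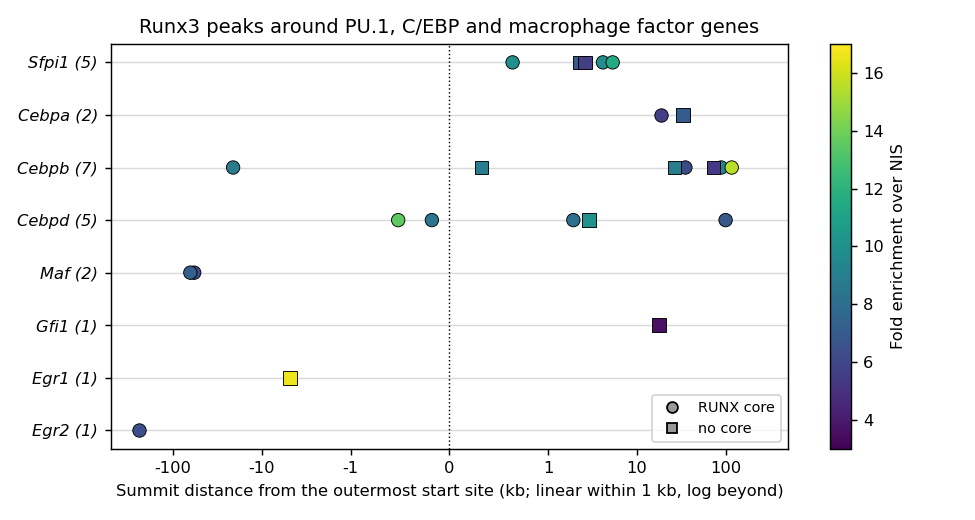
Distance of each Runx3 summit from the outermost TSS of its gene in kb (upstream negative, linear within 1 kb and logarithmic beyond), with fold enrichment as colour, RUNX core as circles and no core as squares. The number of peaks follows each name. Sfpi1 and Cebpd peaks crowd within 5.32 kb of the TSS, with 1 Cebpd peak at 99.1 kb, while the summits of Cebpa, Maf, Gfi1 and Egr2 all lie beyond 10 kb.

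Maf encodes c-Maf, a large Maf leucine zipper factor of tissue macrophages that activates the interleukin 10 gene. It lies on chromosome 8 from 118206842 to 118231694, reverse strand, in the longest domain of the 8, 1792 kb, and that domain held only 2 peaks. Both were intergenic and upstream, by 57.4 and 63.4 kb, and 6.0 kb from each other. The nearer one (chr8:118289062-118289181) had 13 fragments (6.92 to 22.2) and a fold of 6.19, and the farther (chr8:118295039-118295185) 15 fragments (8.40 to 24.7) and a fold of 7.25. The intervals overlap. Both peaks held 1 RUNX core together with a match to the AP-1 motif, and the farther one held 2 such matches. The AP-1 motif was searched as TGANTCA on both strands. That pattern admits any middle base, so a match need not be a site of Jun and Fos dimers. The letters were TGATTCA at the nearer peak and TGACTCA at the farther. A core and an AP-1 motif stood together in 3 of the 24 peaks, the third at Sfpi1 +4.14 kb, and in 8.20% of all peaks. The sequences are shown with both motifs in capitals.
Maf -57.4 kb, chr8:118289113-118289160: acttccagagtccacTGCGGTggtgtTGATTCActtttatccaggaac
Maf -63.4 kb, chr8:118295061-118295142: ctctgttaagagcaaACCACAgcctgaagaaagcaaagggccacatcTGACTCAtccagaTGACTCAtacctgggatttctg

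Gfi1, a zinc-finger repressor that favours granulocytes over monocytes, had the weakest peak of the 8 genes. It lies on chromosome 5 from 108145674 to 108155056, reverse strand, and the annotation types it as a processed transcript, so it was kept by the same reasoning as Cebpd. Its single peak, chr5:108137168-108137287, lay in intergenic sequence past the gene's end and 17.8 kb downstream of the outermost TSS. It had 17 fragments (9.90 to 27.2), inside the range of the other peaks, but a fold of only 3.56. The NIS background there was 2.0 scaled fragments, the highest of the 24, against a median of 0.345 over all peaks. A value this small carries counting error too, for which no interval was computed. The −log10 q was 1.42, equal to the lowest value in the whole list, and the fold ranked 13001 of 13014. The window held no RUNX core and 1 PU.1 motif, shown in capitals.
Gfi1 +17.8 kb, chr5:108137239-108137276: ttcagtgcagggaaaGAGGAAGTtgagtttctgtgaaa

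Egr1 and Egr2 encode early growth response zinc-finger factors, which are induced during monocyte and macrophage differentiation and act with the Nab corepressors. Egr2 lies on chromosome 10 from 66998223 to 67004936, forward strand, and the only summit in its domain of 258 kb stood 238 kb upstream (chr10:66760284-66760407). It had 13 fragments (6.92 to 22.2) and a fold of 6.39, and it lay 12.3 kb from the TSS of Nrbf2, so it is nearer to that gene and was lost to Egr2 when peaks went to the nearest TSS or the reach was 100 kb. It held a RUNX core 6.5 bp from the summit, shown in capitals.
Egr2 -238 kb, chr10:66760318-66760353: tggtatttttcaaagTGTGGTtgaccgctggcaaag

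The peak of Egr1 was the strongest of the 24. Egr1 lies on chromosome 18 from 35020861 to 35024638, forward strand, in the shortest domain of the 8, 22.4 kb. Its peak stood 4.83 kb upstream of the TSS (chr18:35015908-35016128), with 39 fragments (27.7 to 53.3), a fold of 16.7 and a −log10 q of 27.1. A fold this high was found at 4.92% of all peaks and at the best peak of 4.77% of all genes. It held a PU.1 motif 79.5 bp from the summit and no RUNX core. The counting interval of its fragments lies above those of the peaks at Cebpa, Maf, Gfi1 and Egr2.

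**Figure D4:**
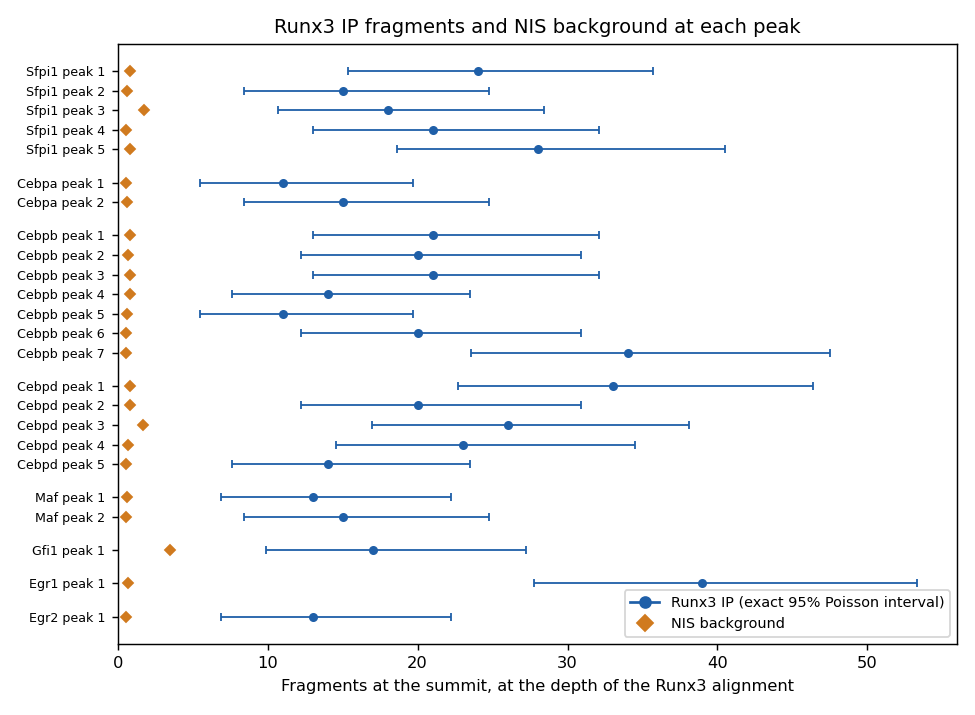
Runx3 fragments at each of the 24 summits (circles, with exact 95% Poisson intervals) and the peak caller's NIS background for the same peaks (diamonds). Both are at the depth of the Runx3 alignment, and the peaks of a gene are numbered along the chromosome. The NIS background runs from 0.552 to 3.51 fragments and is highest at Gfi1, while the Runx3 fragments run from 11 to 39. Several peaks share the lowest NIS value, which is also the lowest of the whole list.

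The share of the 24 peaks with a RUNX core was close to that of the list, with a wide interval. A RUNX core lay within 100 bp of 15 summits, or 62.5% (95% exact binomial interval 40.6 to 81.2), against 64.2% of all peaks. Windows of the same length centred 1 kb to the left and right of these summits held a core in 6 and 1 of 24, against 17.6% and 16.9% over all peaks. Peaks with a core had a median fold of 8.46 (15 peaks) and those without 7.03 (9 peaks), against 8.55 and 7.33 over all peaks. The 9 peaks without a core included the strongest, at Egr1, and the weakest, at Gfi1.

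Motifs of the members' own families were counted in the same windows. The PU.1 motif was found in 6 of 24 peaks, or 25% (9.77 to 46.7), against 10.9% of all peaks, and the share of the list lies inside that interval. These 6 were at Cebpb (2), Cebpd (2), Gfi1 and Egr1, and none was at Sfpi1 itself. The search took 1 exact string, GAGGAAGT on either strand, so a PU.1 site with other letters would be missed. The C/EBP motif TTGCNNAA was found in 3 of 24 (12.5%, 2.66 to 32.4), at Sfpi1, Cebpb and Cebpd, against 8.30%. The AP-1 motif TGANTCA was found in 4 of 24 (16.7%, 4.74 to 37.4), against 12.2%. Its letters were TGACTCA at the farther Maf peak and TGATTCA at the other peaks. The EGR motif GCGTGGGCG and the PU.1-IRF composite (GGAA, any 2 bases, GAAA) were found in none of the 24, which allows shares of up to 14.2%, against 0.330% and 6.5% of all peaks. The composite can share its GGAA with the PU.1 motif. The members' windows had a median GC content of 56%, against 50.2% over all peaks.

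**Figure D5:**
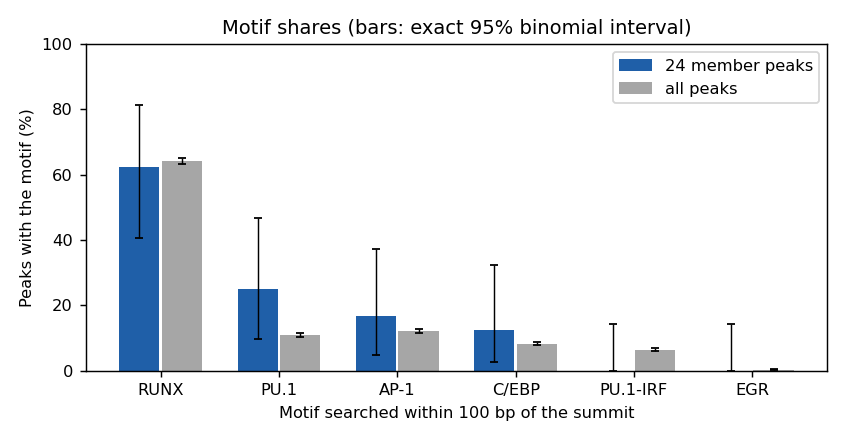
Share of peaks with each motif within 100 bp of the summit, in percent, for the 24 member peaks (blue, left) and all peaks (grey, right). Error bars are exact 95% binomial intervals, which treat peaks as independent. Every grey bar lies inside the interval of the blue bar beside it, with the RUNX core at 62.5% against 64.2%.

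By annotation, 14 of the 24 summits (58.3%) were intergenic, 7 (29.2%) intronic, 2 (8.33%) in a promoter and 1 in a coding exon. Over all peaks the shares were 36% intergenic, 37.2% intronic and 22.9% in promoters, where a promoter is the 1 kb before a TSS and the 100 bp after it. These classes used only protein-coding transcripts and those of the members, so an intergenic summit may lie in a non-coding gene. Both promoter peaks were those of Cebpd. Of the 24 summits 10 lay within 5 kb of a TSS, and 35.9% of all peaks lay that close. The domain of a second gene also contained 19 of the 24 peaks, among them Mybpc3 for 4 of the Sfpi1 peaks, Slc7a10 for both of Cebpa and Dynlrb2 for both of Maf.

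The edge of a domain decided some of these counts. Just outside, a promoter peak of Slc39a13 stood 12 kb upstream of the outermost Sfpi1 TSS with a fold of 13.7, above all 5 peaks inside. A promoter peak of Cebpg lay 62.8 kb upstream of Cebpa with a fold of 6.39. The Ptpn1 promoter, 243 kb downstream of Cebpb, carried a peak of fold 14.6. An intergenic peak 72.0 kb downstream of Egr2 had a fold of 12.5 and lay beyond the domain, which ends at Ado, while the weaker one 238 kb upstream counted. A peak of fold 28.8 lay 202 kb downstream of Egr1, where Ctnna1 has the nearest TSS.

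Relatives of the 8 genes were examined as a list of 16. A peak was present at 10 of them (62.5%), with a median of 1 peak per gene. The highest fold was that of Egr3, another EGR factor, with 7 peaks and a fold of 25.5 at 11.1 kb upstream, which exceeds every peak of Egr1 and Egr2. Cebpe, the C/EBP factor of late granulocytes, had 3 peaks (best fold 11.6, in an intron of Slc7a8), Mafa 3 (11.6, in an intron of Zc3h3) and the corepressor gene Nab1 1 (10.7). Egr4, Gfi1b, Nrl, Spib and Spic were among those with none.

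Of 22 other myeloid factors 16 (72.7%) had a peak, with a median of 3 peaks per gene. Hhex, a homeobox factor, led with 8 peaks and a fold of 47.1, followed by the ETS factor gene Ets2 (17.2), by Bhlhe40 (12 peaks, 14.3), a basic helix-loop-helix repressor, and by the nuclear receptor gene Nr4a1 (14.3). Those without were Elf4, Gata1, Myb, Nr1h3, Tcfe3 and Tcfec, the last 2 under older names of Tfe3 and Tfec. Elf4, Gata1 and Tcfe3 lie on chromosome X.

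Of 25 macrophage and granulocyte genes 15 (60.0%) had a peak, with a median of 1. The best folds were those of Csf1r (28.9, 5 peaks), the receptor of macrophage colony-stimulating factor, Itgam (15.0), an integrin chain, Ltf (12.5), which encodes lactoferrin, and Mertk (11.1), a receptor for dying cells. In all 3 lists the share with a peak exceeded the 42.9% of all genes. That difference was not tested, and neither was the part of domain length in it. The lists were also chosen with earlier results of these data known. Among the other myeloid factors, domains ran from 28.9 kb (Tcfe3) to 2000 kb (Myc).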

How the data were processed

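The submitters' processing notes list CASAVA 1.8, Bowtie 1 and MACS2 2.0.10. Reads were kept where they mapped to 1 place in mm9 (Bowtie) and peaks were called with MACS2. Per the file headers, MACS2 compared 1 Runx3 alignment with 1 NIS alignment at a q cutoff of 0.05, keeping 1 tag per position (28.1% and 30.4% of tags were dropped) with fragments of 119 bp. The labels speak of 2 replicate experiments for 3 Runx3 libraries, and which libraries each alignment pools is not given in the sources used here.

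The deposited signal (pileup) is scaled by the authors to the NIS depth. Dividing by 0.569 gave whole fragments within 0.02 for 100% of peaks. The deposited fold enrichment is a ratio, and the deposited −log10 q-value column was identified by position, as its header cell was unreadable. The −log10 p-value column was not used. NIS background, as set by the caller, was recovered from pileup and fold, in scaled fragments. Duplicate removal limits summit heights, and a high NIS background lowers the fold. No interval was computed for the NIS background.

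Gene domains used GENCODE vM1 on NCBIM37, the same build, keeping the longest model of each name. Cebpd and Gfi1, typed otherwise there, were added. Sequences are from that reference genome. Gene and motif scans were tested on simulated data. No test across conditions was run, and shares and counts carry exact binomial and Poisson intervals for counting error only. The binomial intervals treat peaks as independent, which peaks of 1 locus are not. The alternatives varied peak thresholds, domain rules, motif windows and gene sets. Tools were Python 3.11.15, NumPy 2.4.6, pandas 2.3.3, SciPy 1.17.1, pysam 0.24.0 and matplotlib 3.10.9. All 8 members were named, with the 4 highest folds of each list and the genes without a peak where these were 6 or fewer, except for 1 gene that is not reported here. Members and lists were chosen with earlier results of these data known.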

Additional observations from a re-analysis of the deposited data

How the results depend on the processing

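Peak thresholds, domain rules and motif windows were varied in 12 settings, 2 of them chosen after seeing the data (only genes typed as protein coding, and all genes that RefSeq types so). Requiring a fold of 10 or more left 5 peaks at 4 genes with a median fold of 13.5. In the other settings the number of peaks ran from 18 to 24, of genes with a peak from 6 to 8 and the median fold from 8.02 to 8.83. With only genes typed as protein coding, which leaves out Cebpd and Gfi1, there were 18 peaks at 6 genes. A −log10 q of 5 or more, and genes of every biotype ending a domain, each also left 18 peaks, at 7 genes. The share with a RUNX core ran from 54.2% to 66.7% over all settings. The Gfi1 peak was lost when −log10 q had to reach 5, where Cebpa and Maf kept 1 of 2 peaks, and when genes of every biotype ended a domain, the Egr2 peak with a reach of 100 kb or by nearest TSS, and Cebpb kept 2 of 7 peaks when every biotype ended a domain. No paired analysis was possible because the list holds no values per library, and for the same reason no replicate could be left out.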
